A study of Mus musculus with 6 samples.

Results

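The vascular miRNA genes Mir126a, Mir126b, Mir143 and Mir130a, together with Egfl7, the endothelial gene in which Mir126a lies, were examined in small RNA libraries of mouse hearts. These 5 genes were chosen by name and found by Ensembl identifier among the 10065 genes of the deposited table, of which 134 are miRNA genes. Mir126a and Mir126b overlap and carry the same value, so the 5 genes give 4 distinct means. The libraries came from whole hearts of SV129 mice at postnatal day 6, 3 of them wild type and 3 ADAR2 KO (genotype Adarb1-/-, Gria2R/R). Adarb1 encodes ADAR2, an enzyme that converts adenosine to inosine in double-stranded RNA. By the extraction protocol the wild-type mice were Adarb1+/+ siblings that also carried Gria R/R, so the pre-edited glutamate receptor gene that rescues the ADAR2-deficient mice was shared by all 6 animals. By the methods the animals were female, and each library is a replicate animal.

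The values described here are the mean normalized counts that the authors deposited, with 1 value per gene for all 6 libraries of both genotypes together. No value of a single library was analysed, so the spread between animals is not known, no value below has an error, and no test was run. The methods give a lower bound on the reads per sample, but the total of each library was not analysed here. The columns of the authors' own comparison of the genotypes were not used, and the effect of ADAR2 loss on these genes is therefore not given. Whole hearts hold many cell types, and fewer cells of a type and less RNA per cell cannot be told apart in such libraries.

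An miRNA is cut from a hairpin precursor into a mature strand of about the length of the sequences shown here, and pairs with messenger RNAs mainly through its seed, the bases 2 to 8 from the 5′ end. miR-126 is the best known miRNA of endothelial cells, where it promotes signalling by vascular endothelial growth factor and keeps vessels intact. Its host Egfl7 encodes a protein that endothelial cells secrete into the matrix around growing vessels. miR-143 is made with miR-145 in smooth muscle cells, where the pair favours the contractile state, and miR-130a has been tied to the growth of new vessels by endothelial cells.

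The mature sequences show which genes can be told apart by their reads. They were taken from RefSeq (GRCm38.p6), which gave entries for Mir126a, Mir126b and Mir130a, and are written 5′ to 3′ with the seed in capitals.
miR-126a-3p: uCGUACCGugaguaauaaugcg
miR-126b-5p: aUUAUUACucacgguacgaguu
miR-126b-3p: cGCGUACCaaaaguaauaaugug
miR-130a-3p: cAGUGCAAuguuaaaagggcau
miR-130a-5p: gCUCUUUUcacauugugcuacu
miR-126a-3p lies at chr2:26591402-26591423 on the plus strand and miR-126b-5p at chr2:26591399-26591420 on the minus strand. The stretch UCGUACCGUGAGUAAUAAU of 19 bases in miR-126a-3p is the reverse complement of a part of miR-126b-5p, so both are read from the same DNA. The seeds of the 3 miR-126 strands shown were found in no other mature miRNA of the RefSeq table, and miR-126a-5p was not compared. miR-126a-3p occurred in annotated transcripts of 2 genes, Mir126a and Egfl7, and either strand of miR-130a in those of Mir130a only.

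The hairpins show the same relation over the whole length of Mir126b. They are written 5′ to 3′ with the mature strands listed by RefSeq in capitals.
Mir126a: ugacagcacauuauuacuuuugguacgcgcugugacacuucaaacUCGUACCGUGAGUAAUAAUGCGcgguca
Mir126b: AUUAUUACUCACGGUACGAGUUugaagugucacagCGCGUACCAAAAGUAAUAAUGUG
The Mir126a gene (ENSMUSG00000065540) covers 73 bases of chromosome 2, from 26591357 to 26591429 on the plus strand (GRCm38). Mir126b (ENSMUSG00000105799) covers 58 bases from 26591363 to 26591420 on the minus strand, and all 58 are the reverse complement of bases in Mir126a. miR-126a-3p runs 3 bases past the end of Mir126b. Reads of miR-126a-3p therefore touch both genes. Within the bases that both genes cover, only the strand of a read tells them apart.

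Mir126a and Mir126b both had 675 normalized counts in the authors' mean, equal within 1e-06. This was not particular to the pair. Among the 134 miRNA genes, 14 pairs overlap on opposite strands, and in 14 of the 14 pairs both genes had the same mean. The counts thus do not tell the strands apart at these sites, and the value of 675 belongs to the locus and not to either gene. Some miRNA genes outside these pairs also share a mean, and the 134 genes held 118 distinct means in all.

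By the authors' means the miR-126 locus stood near the top of the miRNA gene entries. How reads that match several places were counted is not given. The order of mature miRNAs, some of which have several gene copies, was therefore not read from these means. Only Mir208b, a miRNA gene inside the slow myosin gene Myh7, had a higher mean, at 938. Mir208a, inside the cardiac myosin gene Myh6, followed with 413, and Mir143 had 289, which gives it rank 5 of 134. Mir99a (200) and Mir22 (156) came next, and no other miRNA gene had a mean of at least 100. Over all miRNA genes 7 of 134 reached that level. Mir126a, Mir126b and Mir143 were 3 of these 7 gene entries, or 2 of the 6 distinct measurements. They were chosen by name with earlier results known, so this is no trait of vascular miRNAs. Among the 14 other listed vascular miRNA genes with an entry the highest mean was 41.5. Mir130a ranked 24 with a mean of 41.0. Its neighbours in the order were Mirlet7b (42.4) and Mir27a (41.5) above it and Mir379 (33.7) and Mir133b (32.9) below it, and with no error for any of these means their order is not established.

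**Figure D1:**
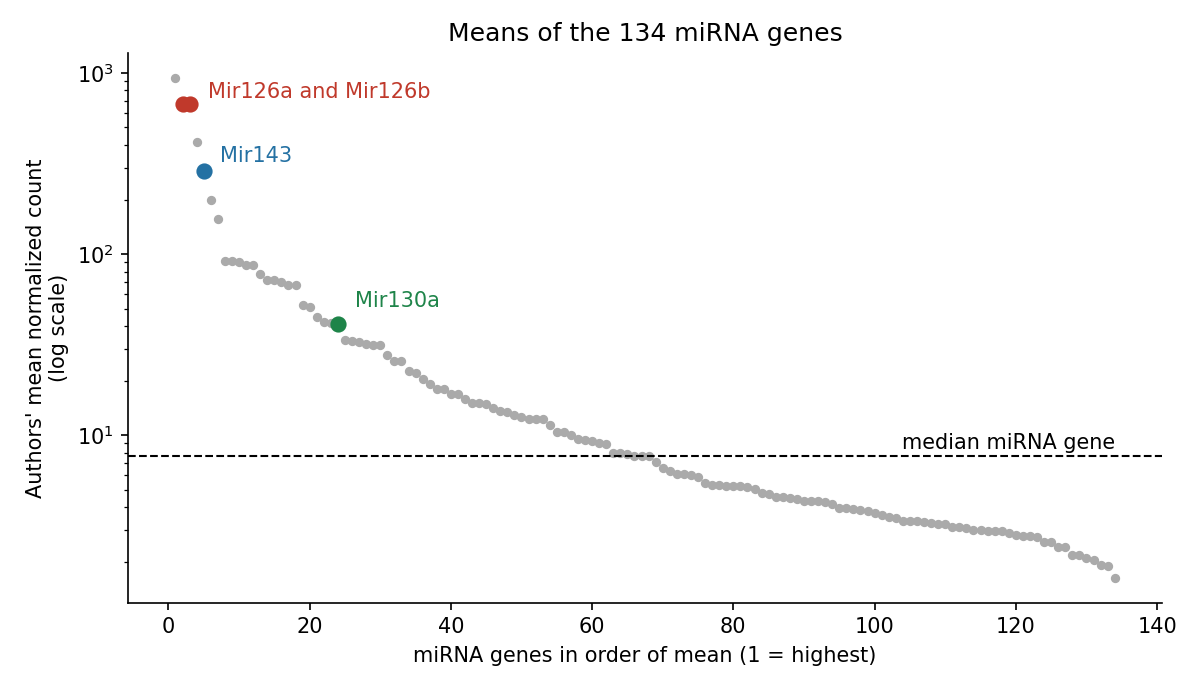
The means of the 134 miRNA genes, in order from the highest, on a log axis of the authors' mean normalized count over all samples. Mir126a and Mir126b share 675, Mir143 sits at 289 and Mir130a at 41.0, all above the dashed line at the median miRNA gene, 7.64.

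The median miRNA gene had a mean of 7.64, and 78 of the 134 had a mean under 10. Relative to that median the level was 88.3-fold for Mir126a, 37.8-fold for Mir143 and 5.37-fold for Mir130a. Mir126a held 12.3% of the summed mean of the miRNA genes, Mir143 5.28% and Mir130a 0.75%. When each distinct mean was summed once, the 3 miRNA loci together held 22.3% of the miRNA signal. Set against all genes of the table, whose means summed to 214408, the shares were 0.315% for Mir126a, 0.135% for Mir143 and 0.0191% for Mir130a.

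The means were also divided by the length of the annotated exons, which for a miRNA gene is the length of the hairpin. The mature strands shown above are shorter than the hairpins and of similar length. This scale therefore partly reflects the annotation and is no better measure of a miRNA than its mean. Mir126a then had 9249 normalized counts per kilobase, Mir143 4584 and Mir130a 641, and the order of the 3 loci was the same as by the mean. The level of Mir126a per kilobase was 2.02 times that of Mir143 and 14.4 times that of Mir130a. Mir143 was 7.15 times as high as Mir130a on this scale. The shorter gene Mir126b, with the same mean, came to 11641 per kilobase. Mir143 kept rank 5 per kilobase and Mir130a rose to rank 19, since its hairpin of 64 bases is short among its neighbours.

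Egfl7 (ENSMUSG00000026921, chromosome 2, 26580014 to 26593120 on the plus strand) had a mean normalized count of 676 in the authors' table. Mir126a starts 11343 bases after the start of Egfl7. Of the Egfl7 transcripts that span Mir126a, it lies in an intron of 7 of the 7 protein-coding ones and in an exon of 1 transcript with a retained intron. The mean of Mir126a came to 99.9% of the mean of Egfl7, and the difference was 0.64 normalized counts. That difference is below 1.09, the lowest mean of any gene in the table. How reads were shared out between overlapping genes is not given in the sources used here, so whether Mir126a reads were counted for Egfl7 was not tested. With the means this close, no level of Egfl7 messenger RNA was read from the table.

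A second protein-coding annotation of the locus had a slightly higher mean. Gm20532 (chromosome 2, 26586639 to 26635634) overlaps Egfl7 on the same strand, contains Mir126a in an intron, and had a mean of 680. The mean of Mir126a came to 99.3% of it, with a difference of 4.99 over a span of 48996 bases. This difference is above the lowest mean of the table, unlike that of Egfl7. The neighbouring gene Agpat2, which overlaps the end of Egfl7 on the minus strand and does not reach Mir126a, was not among the genes analysed here. The means of the 4 entries of the locus thus ran from 675 to 680, with 3 distinct values.

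**Figure D2:**
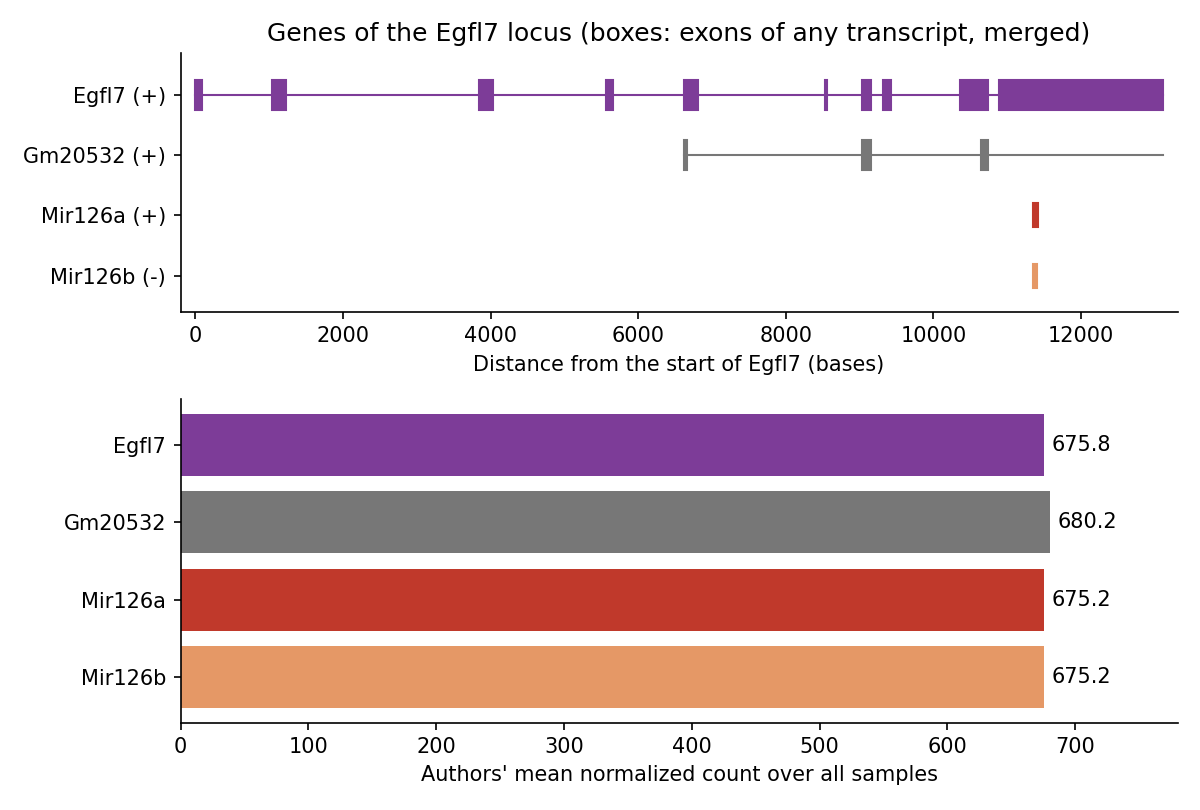
Upper panel, the Egfl7 locus by distance in bases from the start of Egfl7, with exons of all annotated transcripts merged, so that the last box of Egfl7 includes the retained intron that holds Mir126a; Gm20532 runs on past the right edge. Lower panel, the authors' mean normalized count of each gene over all samples, from 0, with the 4 bars between 675 and 680.

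To see whether this is peculiar to Egfl7, every miRNA gene of the table that lies whole inside another gene of the table was set beside it. There were 107 such pairs, formed by 88 of the miRNA genes. Overlapping genes repeat a locus among them, so the pairs are not independent. In 106 of the 107 the surrounding gene had a mean at least as high as that of the miRNA, and the exception, named after its values were seen, was Mirlet7a-1 inside the lincRNA 6720427I07Rik (51.1 against 28.0). This was so for 71 of 71 pairs in which the miRNA lies outside the exons of the surrounding gene, and for 32 of 32 in which it lies on the other strand. The means were not additive in every gene, however. Of 16 surrounding genes that hold 2 or more separate miRNA loci, 13 had a mean at or above the sum of those loci, and 3, named after their values were seen, lay below it. Spaca6 had 6.93 against a sum of 18.5, Fancc 15.1 against 21.2, and 6720427I07Rik 28.0 against 105. Why these fall below the sum was not tested. Egfl7 and Gm20532 hold 1 miRNA locus each, so no such sum bears on them.

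The mean of the miRNA as a share of that of the surrounding gene varied widely. Over the 69 pairs with a protein-coding gene it ran from 1.54% to 99.9%, with a median of 42.9%. Over all 107 pairs it reached 183%, and Mir126a in Egfl7 had rank 6. In 14 of the 107 the share was at least 99%. This locus enters these 14 more than once, through Mir126a and Mir126b, each in Egfl7 and in Gm20532. Egfl7 was the extreme of those 69, since Mir126a and Mir126b had a higher share of its mean than any other miRNA had of its protein-coding host. Myh7 and its Mir208b came close, with 99.4%, and so did Tlcd2 and Mir22, with 99.6%. The difference of 0.64 for Egfl7 can be read against the smallest difference above 0 in any of the 107 pairs, which was 0.127.

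**Figure D3:**
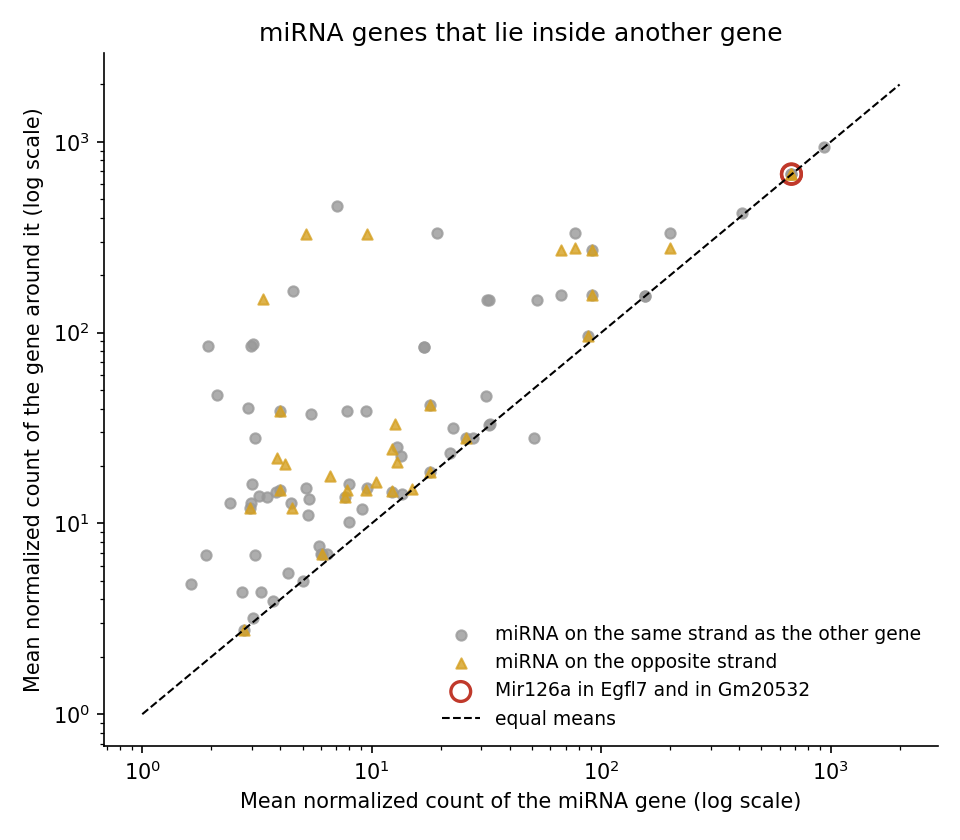
Mean normalized count of each miRNA gene (horizontal) and of the gene around it (vertical), both on log axes, for 107 pairs, with circles for the same strand and triangles for opposite strands. All pairs but 1 lie on or above the dashed line of equal means, and the ringed points of Mir126a in Egfl7 and in Gm20532 lie on it, at 99.9% and 99.3%.

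Mir130a (ENSMUSG00000065484) covers 64 bases of chromosome 2, from 84741115 to 84741178 on the minus strand, and no annotated gene overlaps it. Its 3p strand belongs to a seed family that is shared with other miRNAs of the mouse. The RefSeq table held 7 mature sequences of 7 genes with the seed AGUGCAA, and 3 of the others are written here to show where they part from miR-130a-3p after the seed.
miR-130b-3p: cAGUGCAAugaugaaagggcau
miR-130c: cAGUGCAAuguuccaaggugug
miR-301a-3p: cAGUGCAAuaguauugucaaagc
Counted from the 5′ end, miR-130b-3p is the same as miR-130a-3p over its initial 10 bases, miR-130c over 12 and miR-301a-3p over 9. None of the 6 other genes was among the genes analysed here, so of these 7 genes only Mir130a had an entry, with 41.0 normalized counts. Mir301b, whose 3p strand was not compared, was not among the genes analysed either.

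Mir143 (ENSMUSG00000065445) covers 63 bases of chromosome 18, from 61649196 to 61649258 on the minus strand (GRCm38). No other annotated gene overlaps it either, so its mean of 289 has no host gene's mean beside it. Mir145a, its partner in the smooth muscle cluster, lies 1301 bases away on the same strand and had a mean of 20.4. The level per kilobase was 4584 for Mir143 and 291 for Mir145a, a ratio of 15.8. With no value per animal, whether this ratio held in each heart is not known.

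Other miRNAs known from vessels, in a list of 23 names, had lower means per gene entry than Mir126a and Mir143. Of the 23 names, 20 were found in the annotation, so a gene that goes by another name there was missed. An entry was found for 14, with means from 2.19 for Mir10a to 41.5 for Mir27a. Their median was 9.17, beside 7.64 for all miRNA genes. Mir27a, of the miR-23, miR-27 and miR-24 cluster that endothelial cells make, was the only one above Mir130a, by 41.5 against 41.0. Per kilobase, a scale that depends on the annotated hairpin length, Mir130a had 641, Mir27a 477 and Mir100 398. Mir21a, known from cardiac fibroblasts and injured vessels, had a mean of 13.4, and Mir23a, Mir23b, Mir24-1 and Mir24-2 had means from 3.97 to 8.94. Mir221, Mir222, Mir155 and Mir210, also on the list, were not among the genes analysed here.

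Listed protein-coding marker genes of cell types were also read, which in libraries of short RNA are seen only as fragments. Their levels were taken per kilobase of the whole gene span, introns included, and the median over 8409 protein-coding genes was 0.118. Of 12 endothelial markers 9 had an entry, from 0.0349 for Emcn to 0.298 for the receptor gene Flt1 with a median of 0.0863. The adhesion gene Pecam1 stood at 0.12 and the endothelial cadherin gene Cdh5 at 0.0863. Of 10 smooth muscle and pericyte markers 4 had an entry, from 0.122 for Mylk to 0.199 for Myocd, the coactivator of smooth muscle genes, and the contractile genes Acta2, Myh11, Tagln and Cnn1 were not among the genes analysed here. The 6 cardiomyocyte markers with an entry ran from 0.115 for Ryr2 to 17.0 for Myh6, with a median of 0.476. Ttn had 0.298 and Tnnt2 0.303, close to Flt1. Myh6 has Mir208a inside it, whose mean came to 97.3% of that of Myh6, so the 17.0 was not read as messenger RNA. The 4 fibroblast markers with an entry ran from 0.214 for Col1a2 to 1.17 for Col3a1, with a median of 0.311. The 4 blood markers with an entry ran from 0.0703 for Ptprc to 4.93 for Hba-a1, with a median of 1.86. Their means were low, from 2.45 to 7.93, where the lowest mean of any gene in the table was 1.09. Hba-a1 spans only 955 bases, so a mean of 4.71 gives it a high level per kilobase. Short genes can have an entry only at a high level on this scale, so the medians do not order the cell types.

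On that scale Egfl7 as deposited had 51.6 normalized counts per kilobase of gene span, rank 7 of the 8409 protein-coding genes. This level is above all 9 endothelial markers, but with a mean this close to that of Mir126a it was not read as messenger RNA. Across protein-coding genes, which are not independent replicates, the mean followed the gene span, with a Spearman correlation of 0.56, so a raw mean of a long gene is not a measure of its messenger RNA.

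**Figure D4:**
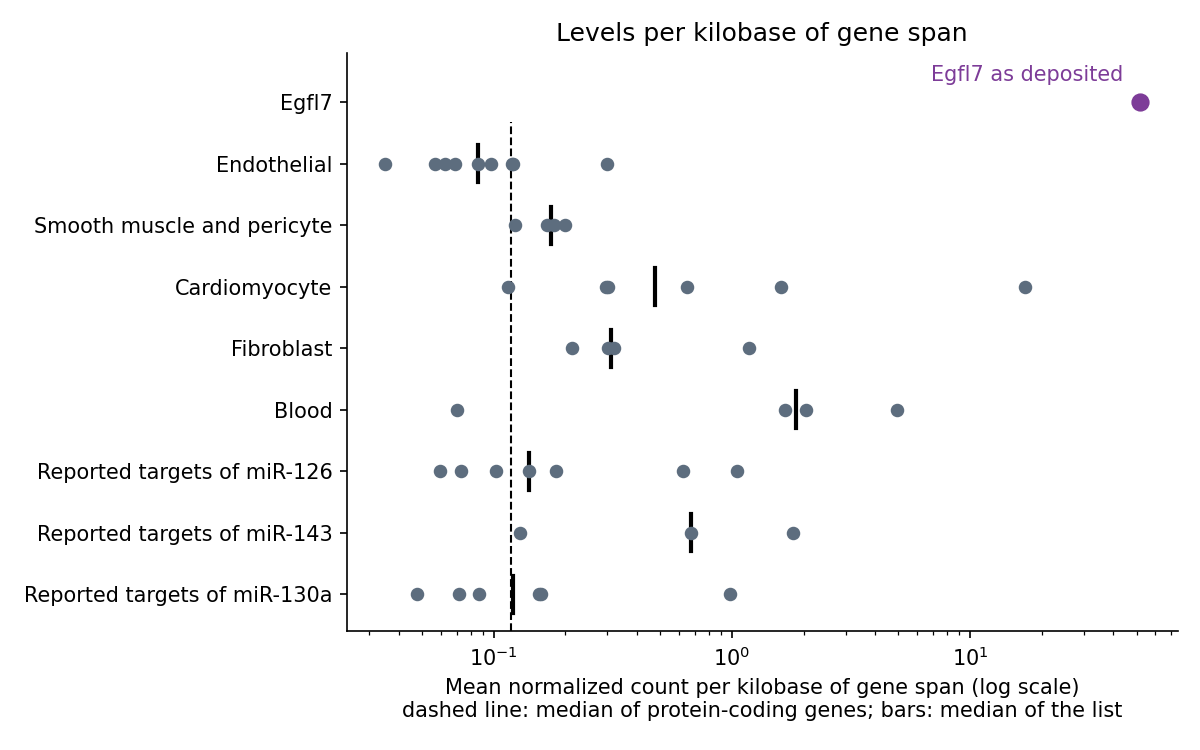
Mean normalized count per kilobase of gene span, on a log axis, for each gene (points) of the marker and target lists, with a bar at each list's median and a dashed line at the median of protein-coding genes, 0.118. Egfl7 as deposited, with Mir126a inside it, sits at 51.6, above all endothelial markers.

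Genes reported as targets of these miRNAs were also listed and read on the same scale, per kilobase of gene span. Of 8 listed for miR-126, 7 had an entry, with a median of 0.141. They include Spred1 (0.183) and Pik3r2 (0.624), which restrain signalling by growth factors in endothelial cells, and Vcam1 (0.141), an adhesion gene of inflamed endothelium. Of 7 listed for miR-143, 3 had an entry, Elk1 (1.8), the hexokinase gene Hk2 (0.676) and the kinase gene Map3k7 (0.129). Klf4 and Klf5, which oppose the contractile state of smooth muscle, were not among the genes analysed here. Of 7 listed for miR-130a, 6 had an entry, with a median of 0.121, from Pparg (0.0478), which encodes a nuclear receptor of fat cells, to Meox2 (0.979), a homeobox gene that holds back vessel growth. These are levels pooled over both genotypes and bear on no effect of a miRNA on its targets.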

How the data were processed

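Small RNA of 3 wild-type and 3 ADAR2 KO hearts was sequenced. By the methods the authors clipped reads with Cutadapt, mapped them with Bowtie and compared genotypes with DESeq; the processing notes name the build mm9. The methods also describe mapping to mature miRNA sequences with NextGenMap, a tool that the processing notes of these libraries do not name. The annotation and the handling of reads that overlap several genes or match several places are not given in the sources used here. The authors deposited a signal per gene, a mean of counts normalized per library over all samples. The other 6 columns hold the authors' own fold changes, standard errors, statistic and p-values and were not used.

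Here, 10005 of 10065 identifiers were matched to GENCODE M21 (GRCm38), whose coordinates are given, and 60 were not. Ranks, shares, levels per kilobase of merged exons or gene span, and containment of miRNA genes were computed with Python 3.11.15, pandas 2.3.3 and numpy 2.4.6. Containment and ranks were tested on simulated data, and the merging of exons and the sequence comparisons on fixed examples. Shares and levels per kilobase were not tested in this way. Means within 1e-06 were called equal. Genes were named by a rule: the members, genes overlapping them, genes sharing a seed, the 5 miRNA genes with the highest mean, 2 neighbours on each side in rank, and gene lists. Myh7, Tlcd2, Spaca6, Fancc, 6720427I07Rik and Mirlet7a-1 were named after their values were seen. The members and lists were chosen with earlier results of these data known. Of the targets listed for miR-130a, 1 is not reported here. Alternatives were collapsed equal means, no Gm names, a mean of at least 10, a pseudocount of 1, all genes as denominator, and gene span.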

Additional observations from a re-analysis of the deposited data

How the results depend on the processing

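Of 29 alternative values, 10 kept the reported value to 3 digits, among them every rank of Mir126a. With equal means collapsed, Mir143 had rank 4 and Mir130a rank 21, and the shares of the miRNA signal were 15.0% for Mir126a, 6.41% for Mir143 and 0.911% for Mir130a. Without Gm names Mir130a had rank 21. With a mean of at least 10, which leaves 56 genes, the shares were 13.2%, 5.65% and 0.802%, and the folds over the median miRNA gene 21.3, 9.12 and 1.30. With a pseudocount of 1 the folds were 78.2, 33.5 and 4.86. With all genes as denominator the shares were 0.315%, 0.135% and 0.0191%. Per kilobase of gene span Egfl7 had 51.6, and 189 per kilobase of exons. These changes follow from the construction of each alternative, and so do kept values. The gene span of each member miRNA equals its exon length, so its level per kilobase could not move. A mean of at least 10 removes only genes that rank below the members, so their ranks could not move either. The kept values are therefore no sign of robustness. No paired analysis was possible because the values pool all samples, and leaving out replicates was not run for the same reason. The total reads of each library were not analysed here, so no counting error is given.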
